A study of Mus musculus with 23 samples.

Results

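Bcor and Bcorl1 encode the BCL6 corepressor and its paralog, and their expression was followed in mouse ESCs before and after removal of the KDM2B ZF-CxxC domain. Both genes were chosen by name, 2 of 23363 gene names with a usable value in the RNA-seq tables. They were picked with the values of these samples already known, so their own differences between the groups are given as a description, without a test. The RNA came from Kdm2b fl/fl ESCs that also carry a tamoxifen-inducible Cre recombinase at the Rosa26 locus. The labels name the cell line MS12, whereas by the study's methods MS12 ESCs received the targeted allele and the floxed lines with Cre were derived later from crosses of the resulting mice. Both Kdm2b alleles of every sample have loxP sites around the exon for most of the ZF-CxxC domain, and Cre removes this exon once 4-hydroxy tamoxifen is added. The 6 RNA-seq samples comprise 3 that the labels call untreated and 3 that they call treated, where treatment is 800 nM 4-hydroxy tamoxifen over 72 hr, all between passages 10 and 20. The text of the series gives the dose in µM. The cells were grown on mouse embryonic fibroblast feeders and plated without them overnight before the treatment. All samples share the floxed alleles and the Cre, and tamoxifen without floxed Kdm2b was not analysed here. They are biological triplicates per the study's methods and carry 1 cell line name in the labels, and whether they cover more than 1 derived line is not given in the sources used here.

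Each direction below follows the labels. The file names assign all 6 samples the other way round, and under that reading each difference keeps its size and changes its sign. The groups are therefore called the samples labelled untreated and the samples labelled tamoxifen. The values of Kdm2b do not settle this, because the tables hold 1 value for the whole gene and the deleted exon is a small part of it. Kdm2b had an FPKM (fragments mapped to a gene, scaled to its length and to the sequencing depth) of 26.95, 21.55 and 27.71 in replicates 1, 2 and 3 labelled untreated and of 19.87, 21.91 and 25.04 in replicates 1, 2 and 3 labelled tamoxifen. These ranges overlapped. The 10 pluripotency markers, such as Pou5f1 and Nanog, summed to 2962 to 4104 FPKM in the untreated and to 3256 to 5664 FPKM in the tamoxifen group. Dppa5a alone held 1401 to 2221 and 1582 to 3534 FPKM of these sums. In either fit, without or with the replicate number as a block, 0 of 10 were called. The 12 feeder fibroblast markers summed to 106 to 287 FPKM in the untreated and to 128 to 233 FPKM in the tamoxifen group. S100a4 alone held 51.7 to 138 and 39.7 to 122 FPKM of these sums. In either fit 0 of 11 tested were called. Of all genes tested 0.0308% were called without the block and 10.4% with it, and lists this short cannot show a difference from these shares. The total number of fragments is not in the tables. The most common ratio between samples in 579 low rows put the depth of the other 5 samples at 0.654 to 0.955 of that of untreated replicate 1.

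BCOR and BCORL1 are large nuclear corepressors that do not bind DNA on a sequence of their own. BCOR was found as a partner of the transcriptional repressor BCL6, and BCORL1 as a partner of the CtBP corepressors. Both bind PCGF1 and thereby enter the variant PRC1 complex that KDM2B brings to CpG islands, where RING1A or RING1B places ubiquitin on histone H2A. Loss-of-function mutations of BCOR and BCORL1 are found in human leukemias.

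Both genes lie on the X chromosome of mm9. Bcor (ENSMUSG00000040363.8) spans chrX:11613864-11737481 on the minus strand, and Bcorl1 (ENSMUSG00000036959.9) spans chrX:45694535-45759905 on the plus strand. GENCODE vM1 on NCBIM37, which is the mm9 assembly, lists 7 coding transcripts of Bcor and 5 of Bcorl1. The longest coding sequence has 5277 bp in 14 coding exons for Bcor and 5343 bp in 13 coding exons for Bcorl1. The coding transcripts of the paralogs shared none of their 51 bp words on either strand. A 51 bp read from one set of these transcripts thus cannot match the other set exactly. Their longest common run on the same strand was 14 bp. The tables also hold a row named 2900008C10Rik inside the Bcor locus, a name that RefSeq lists as a synonym of Bcor. It was at 0 FPKM in all 6 samples with an upper confidence bound of at most 0.0982 FPKM.

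The sequence before each start site is shown because the domain removed from KDM2B recognises nonmethylated CpG dinucleotides, which are in capitals. Each is the 250 bases upstream of the start of the gene, taken 5′ to 3′ from the RefSeq promoter table of GRCm38.p6, at chrX:12160356-12160605 on the minus strand for Bcor and chrX:48341108-48341357 on the plus strand for Bcorl1. Each matched the mm9 X chromosome once, directly beside the start of the gene in the tables.
Bcor: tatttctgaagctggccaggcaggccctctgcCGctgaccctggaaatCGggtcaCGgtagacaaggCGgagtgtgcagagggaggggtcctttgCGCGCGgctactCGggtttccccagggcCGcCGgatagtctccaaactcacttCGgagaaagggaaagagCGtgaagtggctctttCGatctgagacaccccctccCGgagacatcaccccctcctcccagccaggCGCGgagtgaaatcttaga
Bcorl1: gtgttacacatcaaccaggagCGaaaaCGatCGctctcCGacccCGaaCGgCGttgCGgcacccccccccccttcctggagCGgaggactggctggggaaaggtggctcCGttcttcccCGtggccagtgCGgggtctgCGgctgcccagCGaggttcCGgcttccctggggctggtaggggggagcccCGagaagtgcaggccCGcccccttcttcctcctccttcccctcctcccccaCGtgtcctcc
The Bcor window held 16 CpG dinucleotides, with a GC content of 60.8% and an observed over expected CpG ratio of 0.693. The Bcorl1 window held 18, with 68.8% GC and a ratio of 0.619. Among 27018 promoters of the same length the median was 6 CpG dinucleotides, 25.6% held at least 16 and 21.6% held at least 18. Both paralogs thus start beside CpG-rich sequence, and occupancy by KDM2B, RING1B or SUZ12 at these sites was not analysed here.

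Bcor was a highly expressed gene in the samples labelled untreated and lay near the middle of the tested genes in those labelled tamoxifen. Its FPKM was 51.3 in untreated replicate 1, 59.98 in replicate 2 and 64.5 in replicate 3. In the samples labelled tamoxifen it was 5.82 in replicate 1, 11.6 in replicate 2 and 13.3 in replicate 3. The groups did not overlap, and the lowest untreated sample was 3.86 times the highest tamoxifen sample. The group means were 58.6 ± 6.70 and 10.2 ± 3.92 FPKM (SD, n = 3 each), a ratio of 5.72. On the log2(FPKM + 0.1) scale the difference, tamoxifen minus untreated, was −2.58. The untreated mean lay above that of 90.0% of the 12997 genes tested (those that reached 0.5 FPKM in 3 or more samples), and the tamoxifen mean above that of 52.7%.

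Bcorl1 was expressed at a low level in all samples and was moderately lower in those labelled tamoxifen. Its FPKM was 2.68, 1.81 and 2.06 in untreated replicates 1, 2 and 3. It was 1.24, 1.28 and 1.76 in tamoxifen replicates 1, 2 and 3. The groups touched without overlapping, since untreated replicate 2 was only 1.02 times tamoxifen replicate 3. The means were 2.18 ± 0.447 and 1.43 ± 0.290 FPKM (SD, n = 3 each), a ratio of 1.52 and a difference of −0.57 on the log2(FPKM + 0.1) scale. For 2 of 2 paralogs all tamoxifen samples were thus below all untreated ones, an order that the choice of the paralogs used. It held for 5.4% of the genes tested, and the reverse order for 3.09%.

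**Figure D1:**
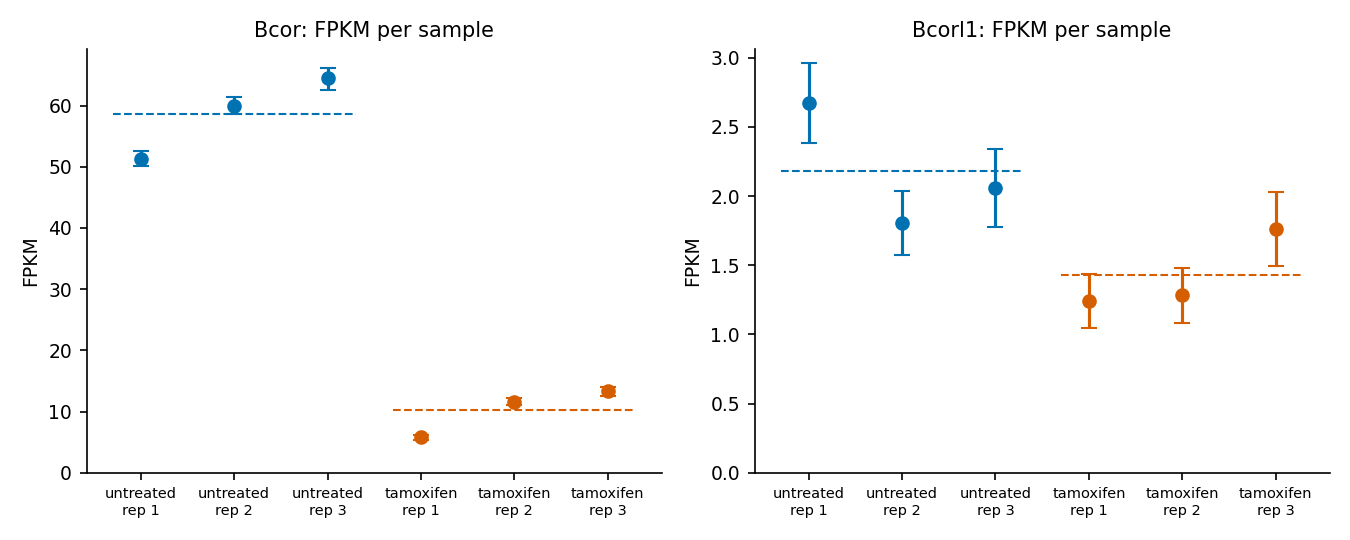
FPKM of Bcor (left) and Bcorl1 (right) in each of the 6 samples, with the confidence interval deposited with each value as the error bar and the mean of each group as a dashed line. Bcor runs from 51.3 to 64.5 in the samples labelled untreated (blue) and from 5.82 to 13.3 in those labelled tamoxifen (orange), while the Bcorl1 groups come as close as 1.81 and 1.76.

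The tables give a confidence interval of each value, which covers the estimate within 1 sample and not the spread between samples. Its half-width was 2.28% to 7.15% of the value for Bcor and 10.9% to 15.9% for Bcorl1. For Bcor the interval ran from 50.1 to 52.5 FPKM in the lowest untreated sample and from 12.6 to 14.0 FPKM in the highest tamoxifen sample, and the intervals were separate in all 9 pairs of an untreated with a tamoxifen sample. For Bcorl1 they were separate in 7 of 9 pairs. The pairs that met were untreated replicates 2 and 3 with tamoxifen replicate 3, whose interval of 1.49 to 2.03 FPKM took in the value of untreated replicate 2. The 9 pairs reuse the same 6 samples, and the share of all tested genes with separate intervals was not computed. The spread between Bcor samples was wider than these intervals, at 11.4% of the mean in the untreated and 38.3% in the tamoxifen group. For Bcorl1 it was 20.5% and 20.2%.

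The labels number the replicates within each group, and the study's methods name no pairing of the RNA-seq samples. Same-numbered samples were treated as pairs here, and the difference was also taken within each number. The log2 differences of Bcor were −3.12, −2.36 and −2.27 within replicates 1, 2 and 3, or 8.82-fold, 5.15-fold and 4.85-fold in FPKM. The log2 differences of Bcorl1 were −1.05, −0.46 and −0.21, or 2.15-fold, 1.41-fold and 1.17-fold in FPKM. Replicate 1 had the widest difference for both paralogs. Within a group the paralogs were not ordered alike, because untreated replicate 1 had the lowest Bcor and the highest Bcorl1 of its group.

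A ratio of the paralogs within a sample is free of the scaling of that sample. There were 19.2, 33.2 and 31.3 FPKM of Bcor for each FPKM of Bcorl1 in untreated replicates 1, 2 and 3. In the samples labelled tamoxifen the ratio was 4.68, 9.06 and 7.53. All tamoxifen ratios lay below all untreated ones, with means of 7.09 ± 2.22 and 27.9 ± 7.61 (SD, n = 3 each). The log2 difference of Bcor minus that of Bcorl1 was −2.01. Bcorl1 made up 2.92% to 4.96% of the summed FPKM of both paralogs in the untreated and 9.94% to 17.6% in the tamoxifen group. Bcor thus remained the higher paralog in all 6 samples, and Bcorl1 was higher in 0 of 3 tamoxifen samples than in any untreated sample.

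**Figure D2:**
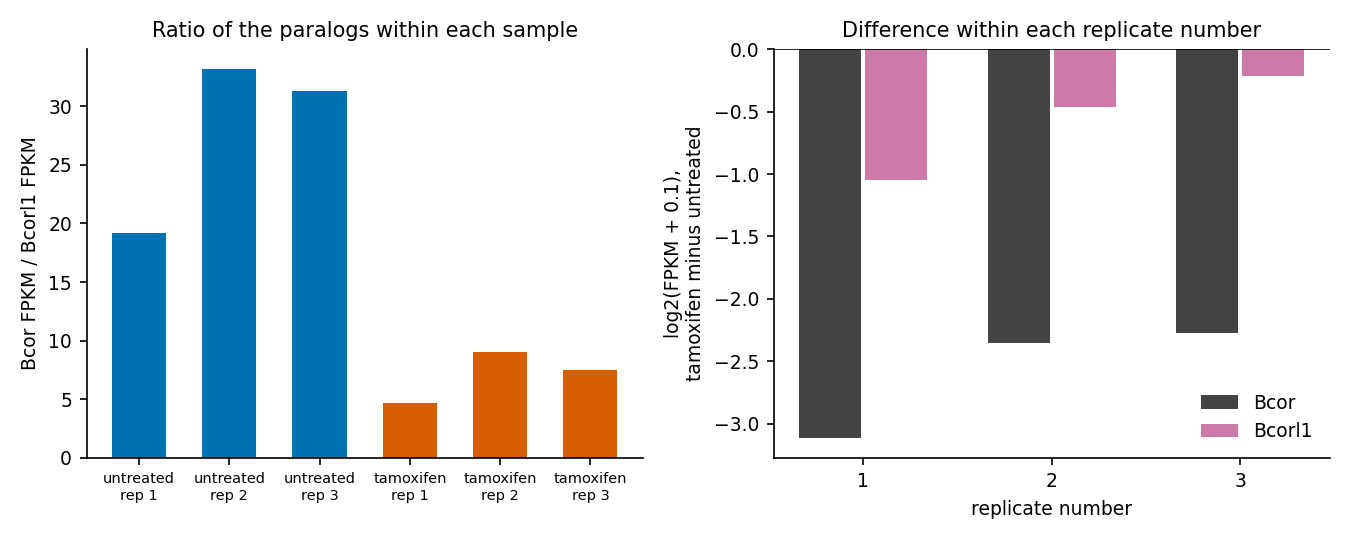
Left, Bcor FPKM divided by Bcorl1 FPKM in each sample (blue, labelled untreated, and orange, labelled tamoxifen), with bars of 19.2 to 33.2 and of 4.68 to 9.06. Right, the difference in log2(FPKM + 0.1), tamoxifen minus untreated, within each replicate number for Bcor (dark grey) and Bcorl1 (pink), below 0 in all 6 bars and lowest in replicate 1.

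The difference of Bcor was then placed among those of all tested genes. Of the 12997 genes tested 31 had a lower log2 difference, and 30 of them were at 0 FPKM in at least 1 sample. The remaining gene was C1ql4, a secreted C1q-like protein gene named here after its values were seen, with means of 2.78 and 0.266 FPKM. Among the 10793 genes with at least 1 FPKM in all 6 samples, a level chosen after the values were seen, Bcor had the largest difference in either direction. In that set 1 gene, Bcor itself, was at least 4-fold lower and 1 was at least 4-fold higher. Bcorl1 ranked 470 from the lowest in the same set, and 7.52% of all tested genes had a lower difference. The median over all tested genes was −0.02 and the central 95% ran from −0.89 to 0.77.

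**Figure D3:**
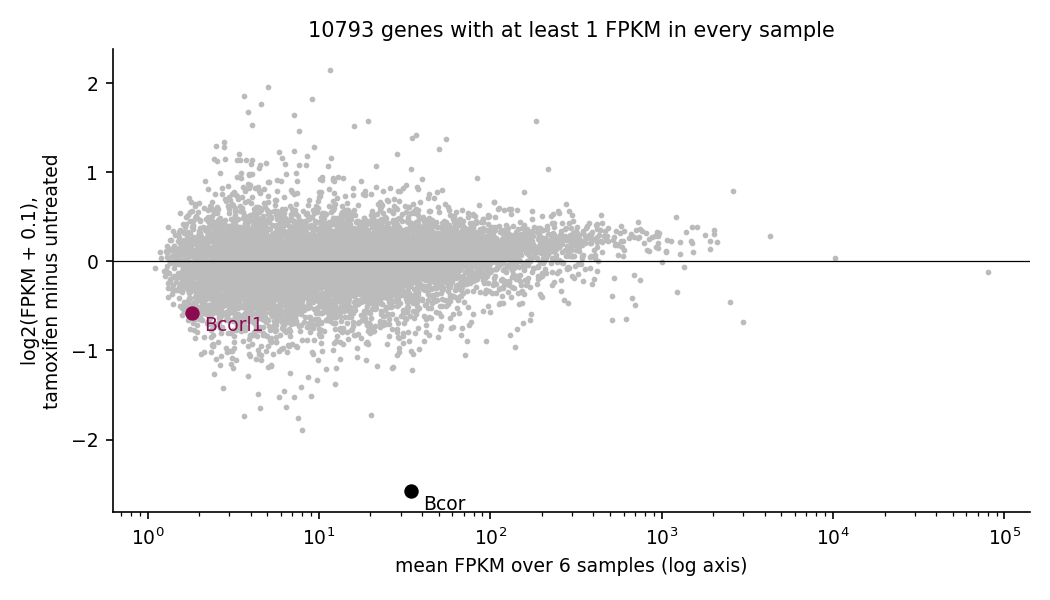
Difference in log2(FPKM + 0.1), tamoxifen minus untreated, against mean FPKM over the 6 samples (log axis) for the 10793 genes with at least 1 FPKM in every sample, with 1 point per gene. Bcor (black) is the lowest point at −2.58, and Bcorl1 (dark pink) lies at −0.57 inside the cloud of genes.

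The complex that both paralogs belong to was examined through its 8 other subunit genes. Without a block limma called 0 of 8 after Benjamini-Hochberg adjustment over the 12997 genes, and 0 of 8 had an unadjusted p under 0.05. With the replicate number as a block it called 0 of 8, and 1 of 8 had an unadjusted p under 0.05. Over all 12997 genes an unadjusted p under 0.05 was reached by 241 higher and 382 lower without the block, and by 3873 with it. Of all genes tested 0.0308% were called without the block (0.0231% higher and 0.00769% lower) and 10.4% with it (4.33% higher and 6.06% lower). The median log2 difference of the 8 genes was 0.01, beside −0.02 for all genes. A missed threshold does not show equal levels. Standard errors on the log2 scale ran from 0.21 to 0.34 without the block and from 0.09 to 0.15 with it.

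Pcgf1, whose product is the direct partner of BCOR and BCORL1, had 8.50, 5.94 and 5.86 FPKM in untreated replicates 1, 2 and 3 and 11.7, 5.82 and 5.13 FPKM in tamoxifen replicates 1, 2 and 3. The groups overlapped, with a log2 difference of 0.08 (standard error 0.34, limma adjusted p = 0.999, and 0.749 with the block). Kdm2b, the subunit that binds CpG DNA, had a log2 difference of −0.19 (standard error 0.21, limma adjusted p = 0.999). Of the H2A ubiquitin ligases, Rnf2, which encodes RING1B, went from 36.4 ± 9.16 to 37.6 ± 8.81 FPKM and Ring1, which encodes RING1A, from 4.95 ± 0.67 to 4.40 ± 1.21 FPKM (SD, n = 3 each). Rybp and Yaf2, whose products bind RING1A/B in variant complexes, had log2 differences of −0.06 and −0.02. Usp7, a deubiquitinase found in the complex, had 71.6 ± 9.21 and 73.8 ± 13.0 FPKM (SD, n = 3 each). Skp1a, whose product binds the F-box of KDM2B, came closest to the threshold. Its log2 difference was 0.37, with a limma adjusted p of 0.999 without and 0.074 with the block, and it was higher within 3 of 3 replicate numbers.

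Since FPKM is per length, levels within the complex can be ordered. In the samples labelled untreated the order was Skp1a, Usp7, Bcor, Rybp, Rnf2, Kdm2b, Yaf2, Pcgf1, Ring1 and Bcorl1. Bcor was above Rnf2 and Kdm2b in every untreated sample, while its range overlapped that of Rybp (38.6 to 56.6 FPKM). In the samples labelled tamoxifen Bcor came after Kdm2b, and its range met that of Yaf2 (6.67 to 8.08 FPKM), the next in the order. For each FPKM of Kdm2b there were 1.90 to 2.78 FPKM of Bcor in the untreated samples and 0.293 to 0.531 in the tamoxifen samples. Per FPKM of Pcgf1 there were 6.04 to 11.0 FPKM of Bcor in the untreated samples and 0.499 to 2.59 in the tamoxifen samples. Bcorl1 was the lowest of the 10 genes in both groups and did not overlap with Ring1, the gene above it.

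**Figure D4:**
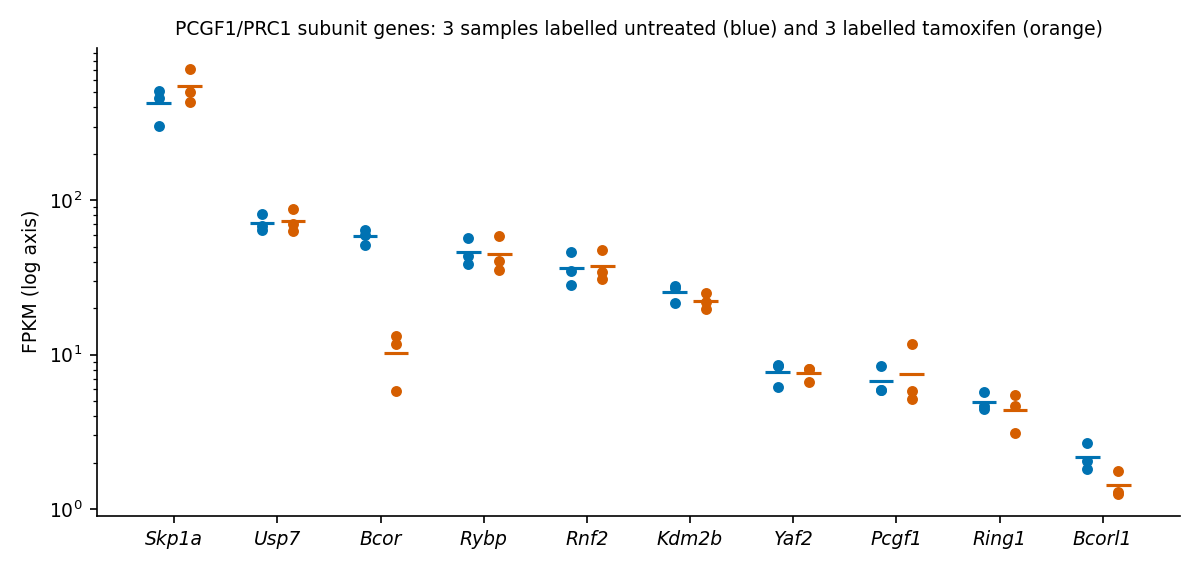
FPKM (log axis) of the 10 subunit genes of the PCGF1/PRC1 complex, ordered by the untreated mean, with a point for each of 3 samples labelled untreated (blue) and 3 labelled tamoxifen (orange) and a bar at each group mean. Bcor moves from a mean of 58.6 to 10.2 FPKM, and the groups of the 8 genes other than Bcor and Bcorl1 overlap.

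A second list held 25 genes of other corepressors, histone deacetylases and BCOR partners. Without a block 0 of 25 were called by limma, beside 0.0308% of all genes. An unadjusted p under 0.05 was reached by 0 of 25, beside 241 higher and 382 lower of all 12997 genes. With the block 1 of 25 rose and 0 fell, or 4% beside 10.4% of all genes. Their median log2 difference was −0.02, as for all genes, and they ranged from −0.59 for Rcor1, a CoREST subunit, to 0.54 for Sin3b. The value of Rcor1 rested mainly on tamoxifen replicate 1, at 2.735 FPKM beside 7.321 in untreated replicate 1, and its log2 differences within replicates 1, 2 and 3 were −1.39, −0.04 and −0.33. Sin3b, a scaffold for histone deacetylases, was the gene that rose. It had 132, 98.2 and 86.5 FPKM in untreated replicates 1, 2 and 3 and 238, 139 and 103 FPKM in tamoxifen replicates 1, 2 and 3 (limma adjusted p = 0.037 with the block, 0.999 without). This call was lost when quantile normalization was added to the block. Bcl6 itself was low, at 1.12 ± 0.249 and 0.867 ± 0.248 FPKM (SD, n = 3 each, log2 difference −0.35, limma adjusted p = 0.999, and 0.282 with the block). Mllt3, which encodes the BCOR-binding protein AF9, had a log2 difference of −0.08. Ctbp1 and Ctbp2, the corepressors that bind BCORL1, had log2 differences of 0.12 and −0.16.

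Both paralogs are X-linked, and so the other X-linked genes were examined for a common shift. The 469 other X-linked genes tested had a median log2 difference of 0.01, and 1 of them had a lower difference than Bcor, the small nucleolar RNA gene Snora70, which was at 0 FPKM in 2 samples. Of the 469, 6.61% had a lower difference than Bcorl1. Without a block limma called 0 of the 469, beside 0.0308% of all genes. An unadjusted p under 0.05 was reached by 21 higher and 11 lower of them, beside 241 higher and 382 lower of all 12997 genes. With the block 30 rose and 22 fell, or 11.1% beside 10.4% of all genes. Centred on the mean of each gene, the median of X-linked genes minus that of other genes was −0.144 in untreated and −0.112 in tamoxifen replicate 1, and 0.039 to 0.114 on the log2 scale in the other 4 samples. Within replicate numbers the median difference of X-linked genes between the groups stayed between −0.033 and 0.044.

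The tested genes next to Bcor lay far from it. The nearest tested gene on the side of its start site, Atp6ap2, which encodes a proton pump accessory protein, began 427 kb away and had 32.3, 78.3 and 49.05 FPKM in untreated replicates 1, 2 and 3 and 32.65, 55.89 and 43.05 FPKM in tamoxifen replicates 1, 2 and 3. Its log2 difference was −0.22 (limma adjusted p = 0.999, and 0.243 with the block). On the other side the nearest was Mid1ip1, a lipogenesis regulator gene 1317 kb away, with a log2 difference of 0.05 (limma adjusted p = 0.999, and 0.771 with the block). Within 1 Mb of Bcor 0 of 6 tested genes were called by limma with or without the block, and their log2 differences ran from −0.29 to 0.76. Of all genes tested 10.4% were called with the block and 0.0308% without, so a count of 0 among so few genes is near these shares.

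Bcorl1 had closer neighbours. Elf4, an ETS family transcription factor gene on the opposite strand, ended 4.3 kb beyond the end of Bcorl1. It had 2.77, 2.89 and 2.86 FPKM in untreated replicates 1, 2 and 3 and 1.54, 2.09 and 1.96 FPKM in tamoxifen replicates 1, 2 and 3. All tamoxifen samples of Elf4 were below all untreated ones, as for 5.4% of the genes tested. The log2 difference of Elf4, −0.59, missed the threshold (limma adjusted p = 0.999, and 0.0505 with the block). It was near that of Bcorl1, and 7.52% of all tested genes had a lower difference than Bcorl1. Upstream, Utp14a, a ribosome biogenesis gene 58.9 kb away, had a log2 difference of 0.34 (limma adjusted p = 0.999, and 0.0642 with the block). Within 1 Mb of Bcorl1 0 of 12 tested genes were called by limma with or without the block, with log2 differences from −0.59 to 0.55. This count too is near the shares of all genes tested, 10.4% with and 0.0308% without the block.

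**Figure D5:**
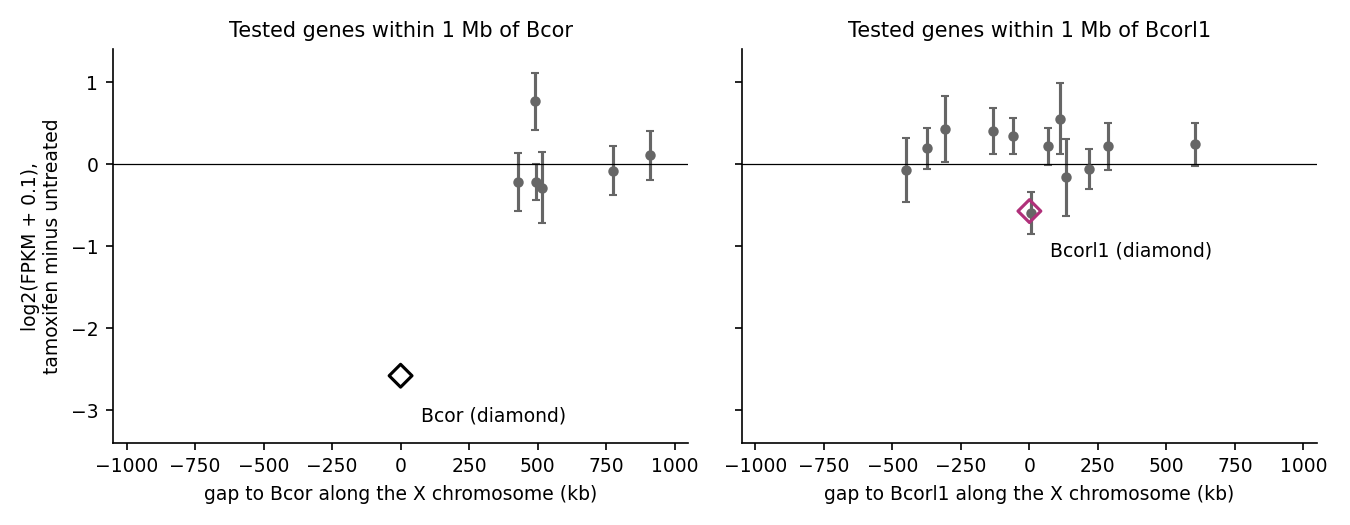
Difference in log2(FPKM + 0.1), tamoxifen minus untreated, of the tested genes within 1 Mb of Bcor (left, 6 genes) and of Bcorl1 (right, 12 genes), against the gap in kb between the loci, with the limma standard error as the bar. The diamond at 0 kb is the member itself, at −2.58 for Bcor, below all of its neighbours, and at −0.57 for Bcorl1, on top of Elf4 at −0.59.

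The genes whose profile over the 6 samples was most like that of each paralog were found by the root-mean-square difference of log2(FPKM + 0.1), centred on the mean of each gene. For Bcor the median gene was 1.36 log2 units away, Bcorl1 was 1.07 away and 7 genes came within 0.5. The nearest were Gm16551 at 0.24, Foxl2os at 0.28, Ltb4r2 at 0.45, and Npr3 and Nkx2-9 at 0.47 each. All were far less expressed than Bcor, with untreated means of 0.843 to 2.20 FPKM and tamoxifen means of 0.1375 to 0.5755 FPKM. In tamoxifen replicate 1 Gm16551 was at 0.0372 and Foxl2os at 0.0264 FPKM. These values are below the 0.1 added before the log2, so the distances of such low genes depend on it. Foxl2os is a transcript antisense to the forkhead gene Foxl2, Ltb4r2 and Npr3 encode receptors for leukotriene B4 and natriuretic peptides, and Nkx2-9 encodes a homeobox factor. For Bcorl1 7367 genes came within 0.5, and the nearest were Gli2 at 0.08, Satb1, Tox3 and Ccnjl at 0.11 each, and Crmp1 at 0.12. Gli2 is a transcription factor of the Hedgehog pathway and Satb1 a chromatin organiser. These profiles include the difference between the groups, so they describe likeness over 6 samples and carry no test.

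The summed level of 6 endoderm markers was also lower in the samples labelled tamoxifen. It was 2.58 to 4.48 FPKM in the untreated and 1.61 to 2.08 FPKM in the tamoxifen samples, and 4 of 6 stayed under 1 FPKM in every sample. The 2 that could be tested, Gata4 and Gata6, fell with the block, as did 6.06% of all genes tested, and were not called without it. They made up most of the sum in every sample. The ranges of Sox17, Sox7, Foxa2 and Afp overlapped between the groups, and Sox7 was highest in tamoxifen replicate 3, at 0.441 FPKM. Of the 6 markers 0 were at 0 FPKM in all samples. In bulk RNA fewer cells of a type and less RNA per cell cannot be told apart. The part of such cells in the values of Bcor and Bcorl1 was not tested.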

How the data were processed

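The authors sequenced polyA+ RNA as paired-end directional libraries, mapped them to mm9 by Tophat2 and quantified refGene models with cuffdiff 2.1.1. The deposited tables hold 1 FPKM with its confidence bounds for each of 23874 rows per sample, and the level of confidence is not given in the sources used here. Read counts were not used here, and the 17 ChIP-seq samples of the series were not analysed here. Rows of 1 gene name were summed, 6 names with a failed quantification were left out, and table starts were raised by 1 to count from 1. Genes with at least 0.5 FPKM in at least 3 of 6 samples were fitted on log2(FPKM + 0.1), which understates the change of low genes, with limma 3.58.1 in R 4.3.3 (two-sided, Benjamini-Hochberg threshold 0.05), after a test on simulated data. Same-numbered samples correlated in their deviations from group means (0.544, 0.605 and 0.506 for numbers 1, 2 and 3, across genes), so fits with that number as a block are given beside the others. Replicates are biological triplicates per the study's methods. The members and lists were chosen with earlier results of these data known. Named genes are the paralogs, the complex subunits, list genes that were called, the 5 nearest profiles, and the adjacent genes. Others were named after their values were seen. Python 3.11.15 was used for the remaining steps.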

Additional observations from a re-analysis of the deposited data

How the results depend on the processing

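The log2 differences of Bcor and Bcorl1 and of their ratio kept their sign under every alternative computed for them. Bcor was at −2.47 when the pseudocount was 1 and at −2.59 when it was 0.01, its extremes among settings on all samples, and went from −2.22 without tamoxifen replicate 1 to −2.81 without tamoxifen replicate 3. Bcorl1 went from −0.39 (pseudocount 1) to −0.61 as the ratio of group means, and from −0.42 without untreated replicate 1 to −0.72 without tamoxifen replicate 3. The replicate block left these differences unchanged by construction. The counts of called genes moved most. Without a block limma called 3 higher and 1 lower of all genes, with 241 higher and 382 lower at an unadjusted p under 0.05. The replicate block gave 563 higher and 787 lower, 1 of the corepressor list and 52 X-linked, and the replicate block with quantile normalization 558 higher, 586 lower and 42 X-linked. A pseudocount of 1 gave 0 lower. Keeping genes with at least 1 FPKM in every sample left 0 higher and 0 lower. Leaving out 1 sample at a time gave 2 to 5 higher, 0 to 7 lower and 0 to 1 X-linked. Of those counts, 5 higher came without untreated replicate 1, 0 lower without untreated replicate 2 or 3, and 5, 4 and 7 lower without tamoxifen replicates 1, 2 and 3, and 1 X-linked without untreated replicate 1 or tamoxifen replicate 2. The cause was not tested. The complex subunits had 0 calls under every setting run.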

Other observations

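After Bcor, the lowest differences among genes with at least 1 FPKM in all samples were those of 3 neural transcription factor genes, listed after their values were seen. Neurod1 went from 12.4 ± 5.25 to 3.48 ± 2.103 FPKM, Insm1 from 11.4 ± 3.28 to 3.75 ± 2.66 FPKM and Pax6 from 5.64 ± 1.32 to 1.70 ± 0.789 FPKM (SD, n = 3 each), untreated first.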
